A study of Mus musculus with 14 samples.

Results

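A set of 10 genes of the cartilage programme were followed in whole mouse fetuses that had received the microRNA let-7f-5p or vehicle as zygotes. It held 3 transcription factors, Sox9, Sox5 and Sox6, and 7 genes of the cartilage matrix, Acan, Matn1, Matn3, Matn4, Hapln1, Comp and Cnmd. The genes were taken by symbol from the table of deposited normalized counts. All 10 were present among its 18132 named genes, and all 10 reached the mean value of 10 that 17400 genes reached. The rule names the genes and uses no measured value.

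The fetuses were wild type, of the strain F1 C57BL/6Jx129S1/SvlmJ, and were collected at gestational day 12.5 from CD1 recipient dams. The zygotes had been injected with nuclease-free water, the vehicle, or with a synthetic let-7f-5p mimic in the same water, at a concentration that the labels call stress-relevant without giving a number. Among females 5 received vehicle and 3 received let-7f, and among males these numbers were 4 and 2. Every library came from poly-A RNA of a whole fetus, so cartilage is 1 tissue among many, and for each result fewer cartilage cells and less RNA per cell cannot be told apart. The labels do not say which fetuses were littermates, so the p-values cover only the spread among these samples, part of which may be shared within a litter. The libraries do not measure the mimic itself.

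Cartilage forms when mesenchymal cells condense and switch on SOX9, which activates the genes of the cartilage matrix together with the paired factors SOX5 and SOX6. The matrix is a collagen network filled with aggrecan, the large proteoglycan that Acan encodes, which is bound to hyaluronan through the link protein Hapln1. Matrilins (Matn1, Matn3, Matn4) and the thrombospondin family protein Comp connect collagen fibrils with other matrix components, and Cnmd encodes chondromodulin, a membrane protein of chondrocytes known to restrain blood vessel growth. SOX5 and SOX6 are also made outside cartilage, in neural and blood-forming cells among others, and SOX9 in the neural tube, gonad and several other organs.

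let-7f belongs to the let-7 family, which represses transcripts that pair with bases 2 to 8 of the microRNA, the seed. The injected sequence, from the labels, is identical to the mature RNA that RefSeq gives for mouse Mirlet7f-1 (chr13:48537889-48537910, minus strand, GRCm38.p6) and Mirlet7f-2 (chrX:151912353-151912374, plus strand). It is shown with the seed in capitals because it is the agent that separates the groups:
let-7f-5p: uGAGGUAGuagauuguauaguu

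Matches to this seed were sought in the 3' UTRs of the members (GENCODE M21 on GRCm38) as CTACCTC or TACCTCA, and CTACCTCA where both overlap. CTACCTC pairs with bases 2 to 8. TACCTCA is a partial match, which lacks the letter that pairs with base 8 and ends in an A. None of the 10 members had CTACCTC. A single TACCTCA was present in 1 member, Sox6, at chr7:115470963-115470969 on the minus strand. The match lies 5949 bases after the stop codon in a 3' UTR of 6046 bases. It is shown in its 30-base window (chr7:115470954-115470983), in the transcript's direction, with the match in capitals:
Sox6 3' UTR: tatttatgctcattTACCTCAagactgtcc
Any of these matches was present in 2757 of the 15482 tested genes with an annotated 3' UTR (17.81%), and the 8-base form, which no member had, in 3.94%. A match describes the letters of the UTR and does not show that the site is used. Sox6 values in the let-7f fetuses are given below beside those of the members with no match.

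Library depth was between 27709934 reads in let-7f male 1 and 42898166 in let-7f female 1. A pair of libraries stood apart. In let-7f male 1, 16.1% of the reads came from ribosomal protein genes, against 4.02% to 9.67% in the others, and 1 read was worth 1.76 units of deposited value, against 0.794 to 1.07. In vehicle female 2, liver transcripts were nearly missing, with an Alb value of 43.8, and the 6 liver markers summed to 1389 against at least 34923 in any other library. Results are therefore also given without both libraries, an alternative chosen after seeing the data. Marker genes of other tissues were measured in every group. The 6 tendon markers summed to between 1999 and 4340, the 6 osteoblast markers to between 1159 and 1894, the 9 limb and somite mesenchyme markers to between 12347 and 15385, and the 5 neural crest and glia markers to between 2658 and 3871. The 5 Sertoli cell markers summed to between 2040 and 3559, the 6 erythroid markers to between 59812 and 713778, and the 3 lens markers in the table to between 551 and 3011. Most of the Sertoli sum was Cyp26b1 (mean 2664 over 14 fetuses), so it does not show Sertoli cells in every group. Amh had means of 14.2 in vehicle females, 43.0 in vehicle males, 12.7 in let-7f females and 44.4 in let-7f males. Of 5 trophoblast markers, 1 was in the table and reached at most 38.2. Values below are deposited normalized counts unless a log2 change is named.

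Sox9, the factor that starts cartilage formation, was almost constant. Its value was 2910, 3140, 3171, 3138 and 2879 in vehicle females 1 to 5 and 2422, 2879, 2940 and 2668 in vehicle males 1 to 4. In let-7f females 1 to 3 it was 2986, 2564 and 2781, and in let-7f males 1 and 2 it was 3006 and 2987. The highest fetus was 1.31 times the lowest. The spread between fetuses of a group was 0.0950 on the log2 scale (SD, 10 degrees of freedom), and 1.80% of the 17400 tested genes had a spread as small or smaller. With let-7f, Sox9 was lower by a log2 change of -0.14 (SE 0.101) in females and higher by 0.14 (SE 0.119) in males, and neither passed limma's test (adjusted p = 0.9998 and 0.574, Benjamini-Hochberg over all genes). Both let-7f males lay above all 4 vehicle males, the only member with that order; 4.14% of all tested genes had it.

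Sox5 and Sox6, the pair that acts beside SOX9, varied about 3-fold and did so together. Sox5 was 866, 1661, 1933, 1445 and 1169 in vehicle females 1 to 5 and 2014, 671, 1706 and 1365 in vehicle males 1 to 4. It was 1683, 1766 and 1060.5 in let-7f females 1 to 3, and 1031 and 1556 in let-7f males 1 and 2. Every group overlapped the others, and vehicle male 2 and vehicle female 1 were the lowest fetuses. Sox6 was 1077, 1906, 2368, 1742 and 1219 in the vehicle females and 2344, 850.3, 2093 and 2004 in the vehicle males, in the same order. Its values were 2390.05, 2496 and 1337 in the let-7f females, and 816 and 1598 in the let-7f males. The same vehicle fetuses were low for Sox6 as for Sox5, and let-7f male 1 was the lowest of all 14. Sox6, the member with the partial seed match, was higher by a log2 change of 0.33 (SE 0.371) in let-7f females. Its change was -0.57 (SE 0.440) in let-7f males, and limma adjusted p was 0.9998 and 0.536. Sox5, with no match, gave 0.11 (SE 0.347) and -0.07 (SE 0.412), with limma adjusted p = 0.9998 and 0.936. Without let-7f male 1 the Sox6 log2 change in males was -0.09 and that of Sox5 was 0.22.

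**Figure D1:**
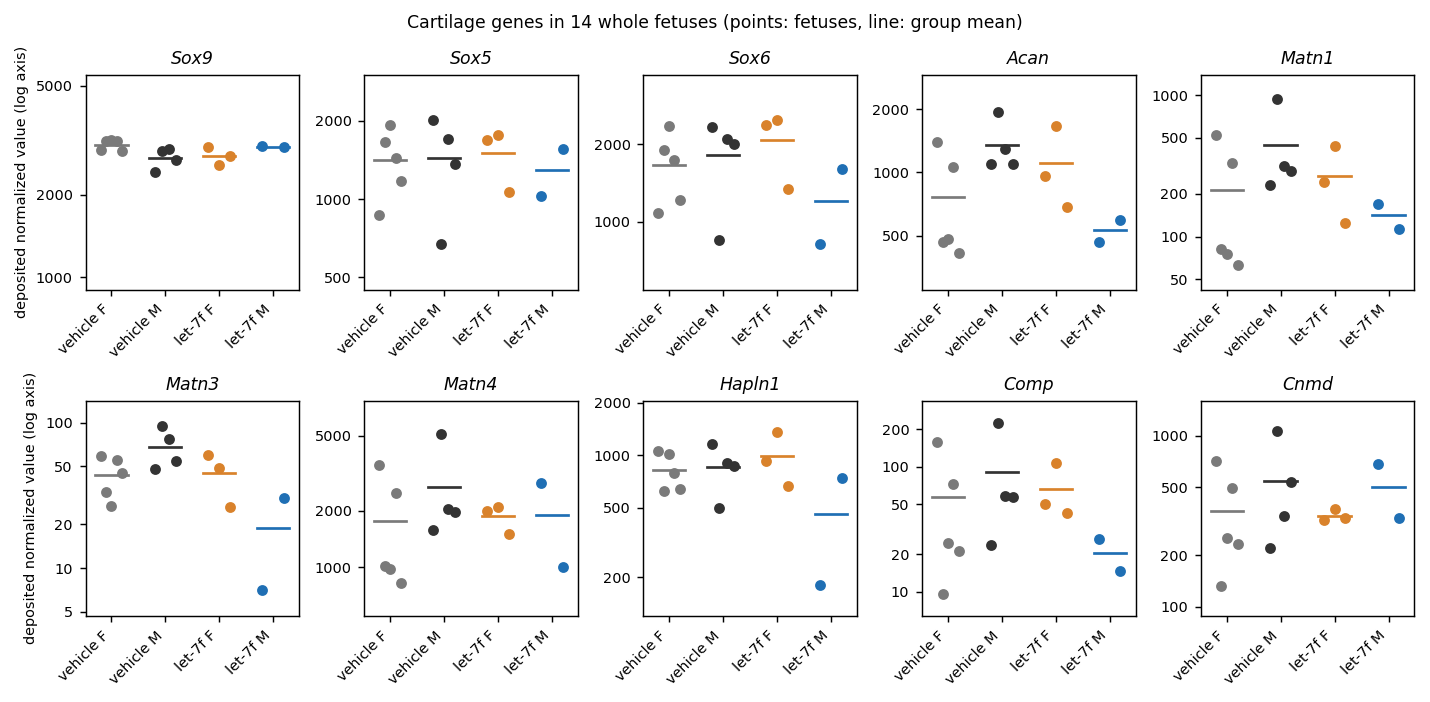
Deposited normalized value (log axis) of each of the 10 genes in 14 fetuses, by group (F, female; M, male); points are fetuses and lines group means. Sox9 stays between 2422 and 3171, whereas Matn1 runs from 63.2 to 932, and the let-7f males lie below every vehicle male for Acan, Matn1 and Matn3.

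Acan, which encodes aggrecan, was lower in both let-7f males than in any vehicle male. Its value was 1094, 1946, 1289 and 1095 in vehicle males 1 to 4, and 465 and 595 in let-7f males 1 and 2. In vehicle females 1 to 5 it was 1392, 465.7, 481, 1063 and 416, and in let-7f females 1 to 3 it was 958, 1670 and 681. Thus 3 of the 5 vehicle females were as low as the let-7f males, and the female groups overlapped. The log2 change in males was -1.32 (95% interval -2.37 to -0.27), with limma adjusted p = 0.447. In females it was 0.61 (-0.27 to 1.49), with limma adjusted p = 0.9998, and 0.263 without let-7f female 2. Without let-7f male 1 the male change was -1.14, with limma adjusted p = 0.9999.

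The matrilins differed in how far they followed Acan. Matn1, the classical cartilage matrilin, was 233, 932, 317 and 293 in vehicle males 1 to 4 and 171 and 112 in the let-7f males. It was 525, 81.4, 75.1, 329.8 and 63.2 in vehicle females 1 to 5 and 241, 439 and 125 in the let-7f females. The let-7f males again lay below every vehicle male and above the 3 lowest vehicle females. Its log2 change was -1.44 (-3.25 to 0.37) in males and 0.69 (-0.84 to 2.22) in females, with limma adjusted p = 0.453 and 0.9998. The female value ran from 0.245 without let-7f female 2 to 1.15 without vehicle female 1, and was 0.324 by edgeR. Matn3, a matrilin of the growth plate, was lowest in let-7f male 1, at 7.05, which rests on 4 reads, and was 30.5 in let-7f male 2. Vehicle males 1 to 4 had 47.9, 94.1, 77.1 and 54.2, vehicle females 1 to 5 had 59.1, 33.3, 26.6, 55.0 and 45.04, and the let-7f females had 59.6, 48.9 and 26.4. The males did not overlap, whereas the females did. The log2 change of Matn3 in males was -2.07 (-3.20 to -0.94), with limma adjusted p = 0.447. In females its change was 0.02 (-0.93 to 0.98). Without let-7f male 1 the male change was -1.09, with limma adjusted p = 0.9999.

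Matn4, a matrilin that is also made outside cartilage, was the member with the highest level per length. It was 1573, 5126, 2030.4 and 1969.8 in vehicle males 1 to 4, and 2807 and 1002 in let-7f males 1 and 2. In vehicle females 1 to 5 it was 3498, 1018, 983, 2490.3 and 827, and in the let-7f females 2000.2, 2101 and 1495. Vehicle male 2 and vehicle female 1 were the highest, and the groups overlapped in both sexes. The log2 change was -0.51 (SE 0.614) in males and 0.31 (SE 0.518) in females, with limma adjusted p = 0.689 and 0.9998. The male value rested on single fetuses, being -1.25 without let-7f male 1, 0.236 without let-7f male 2 and -0.138 without vehicle male 2. In females it ran from 0.102 without vehicle female 5 to 0.622 without vehicle female 1. An exon of Rbpjl overlaps Matn4 on the opposite strand, and Rbpjl itself reached at most 47.8.

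Hapln1, the link protein gene, was low in 1 fetus, let-7f male 1, at 179.8 from 102 reads. Let-7f male 2 had 737, and vehicle males 1 to 4 had 1155, 498, 898 and 863. Vehicle females 1 to 5 had 1053, 619.7, 1014, 789 and 641, and let-7f females 1 to 3 had 928, 1365 and 667. Let-7f male 2 was inside the range of the vehicle males. The male log2 change of -1.16 (-2.21 to -0.12; limma adjusted p = 0.447) became -0.15 without let-7f male 1, with limma adjusted p = 0.9999. Leaving out let-7f male 2 instead, so that let-7f male 1 alone stood for the group and was assumed to vary like the other groups, gave limma adjusted p = 0.00880 for Hapln1 (log2 change -2.18) and 0.00403 for Matn3 (-3.05). In that setting 25.2% of all genes passed in males, so 2 of 10 members is no more than the share over all genes, and 4.98% passed over both sexes. No other member passed in males in any of the alternatives.

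Comp and Cnmd had high values in the same vehicle fetuses. Comp was 23.5, 225, 58.5 and 56.8 in vehicle males 1 to 4 and 159, 9.63, 24.7, 72.7 and 21.1 in vehicle females 1 to 5. It was 50.8, 107 and 42.6 in the let-7f females, and 26.4 and 14.8 in the let-7f males. The groups overlapped, because vehicle male 1 was as low as the let-7f males. The log2 change of Comp was -1.67 (-3.78 to 0.45) in males and 0.75 (-1.03 to 2.54) in females, with limma adjusted p = 0.456 and 0.9998. The female value was 0.299 without vehicle female 2, 0.354 without let-7f female 2 and 1.3 without vehicle female 1, and 0.228 by edgeR and 0.235 by DESeq2. The male value was -1.08 without vehicle male 2. Cnmd was 222, 1070.02, 341 and 534 in the vehicle males and 713, 133, 252, 496 and 235 in the vehicle females. It was 322, 374 and 329.6 in the let-7f females, and 682 and 329.5 in the let-7f males. Its groups overlapped as well, with log2 changes of 0.06 (SE 0.645) in males and 0.15 (SE 0.544) in females and limma adjusted p = 0.968 and 0.9998.

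Counted together, none of the 10 members passed limma's adjusted threshold of 0.05 for let-7f in females, where 0.00575% of all genes did (1 gene), or in males or over both sexes, where 0% did. Over both sexes 1 member, Matn3, had an unadjusted p under 0.05, against 2.78% of all genes. At an unadjusted p under 0.05, 0 members passed in females, against 0.81% of all genes, and 3 passed in males (Acan, Matn3 and Hapln1), against 10.8%. Let-7f females lay wholly outside the range of vehicle females for 0 members and for 1.49% of all genes. Let-7f males lay below all vehicle males for 3 members (Acan, Matn1 and Matn3) and for 5.9% of all genes. In males 8 of 10 members were lower (9 after rescaling to the 75th percentile, which turned Cnmd to -0.00465), with a median log2 change of -0.87, against a median of -0.002 over all genes. In females 9 of 10 were higher, with a median of 0.27 against -0.004, and this median moved between 0.12 without let-7f female 2 and 0.48 without let-7f female 3. Without let-7f male 1 and vehicle female 2, 0 members had an unadjusted p under 0.05 in either sex, 8 were still lower in males (median -0.78) and 7 were higher in females (median 0.18). On recovered reads, edgeR's quasi-likelihood test and DESeq2 also called 0 members in each sex.

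**Figure D2:**
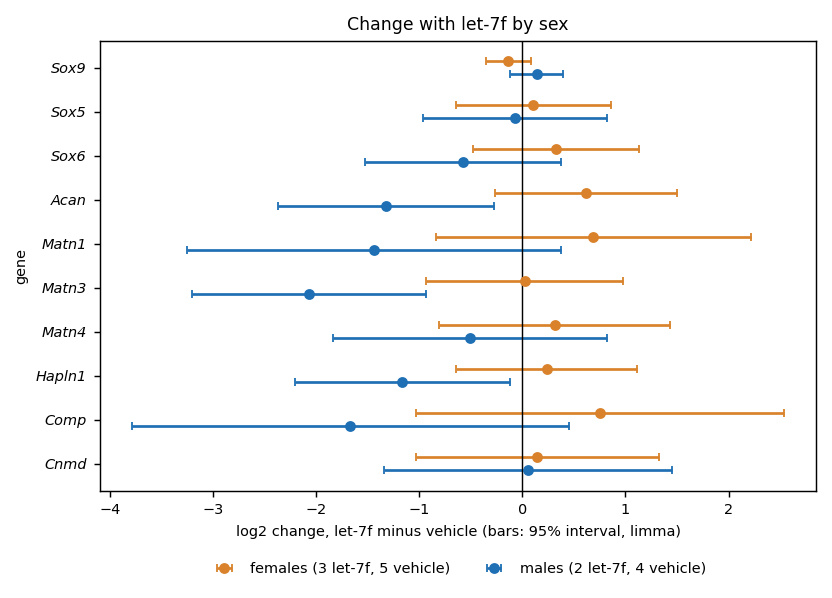
Log2 change with let-7f (points) with limma's 95% interval (bars) for each gene in females and in males. In females every interval includes 0, and in males those of Acan, Matn3 and Hapln1 do not, before adjustment over all genes.

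The let-7f change was lower in males than in females for 9 of the 10 members, Sox9 being the exception, and for 50.5% of all genes. Most of the matrix members varied together, so their signs are not separate observations. The difference (male change minus female change, log2) was -1.93 (-3.30 to -0.56) for Acan, -2.09 (-3.57 to -0.61) for Matn3 and -1.40 (-2.77 to -0.03) for Hapln1, with limma adjusted p = 0.522 for each. It was larger but less certain for Comp, -2.42 (-5.19 to 0.35), and Matn1, -2.13 (-4.50 to 0.25). At an unadjusted p under 0.05 the count was 3 of 10 members against 8.53% of all genes, and 0 members or other genes (0%) passed the adjusted threshold. Without let-7f male 1 and vehicle female 2, 0 members had an unadjusted p under 0.05 for the difference. Leaving out let-7f male 2 alone gave limma adjusted p = 0.0142 for Matn3 and 0.0187 for Hapln1, in a setting where 18.4% of all genes passed. The difference between sexes, the vehicle sex comparison and the let-7f changes share the same vehicle fetuses.

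Among vehicle fetuses alone, 8 of 10 members had a higher mean log2 value in males than in females, as did 8141 of the 17400 tested genes. Sox9 and Sox5 were the exceptions. On the linear scale the mean of Sox5 was also higher in males (1439 against 1415). Acan was 1356 ± 404 (SD, n = 4) in males and 764 ± 440.1 (n = 5) in females, a log2 difference of 0.97 (SE 0.375) with limma adjusted p = 0.9998. It was the only member with an unadjusted p under 0.05, which 2.63% of all genes had. The count was 0 members without vehicle female 2, 3 or 5, without vehicle male 2, or with the replicate number as a block. It was 3 without vehicle female 1. With 1 vehicle fetus left out, 6 to 9 members were higher in males. The adjusted threshold was passed by 0 members and by 0.0402% of all genes (7 genes). For no member did all vehicle males lie above all vehicle females, an order that 0.672% of all genes had. Vehicle females 1 and 4 were within or near the male range for Acan, Matn1 and Matn4, and vehicle females 2, 3 and 5 were below it.

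Most members differed widely between fetuses of the same group. The within-group spread (SD of log2 values) was 0.0950 for Sox9, 0.528 for Sox5, 0.567 for Sox6, 0.623 for Hapln1, 0.625 for Acan and 0.644 for Matn3. It was 0.800 for Matn4, 0.837 for Cnmd, 1.09 for Matn1 and 1.27 for Comp, and the median over all tested genes was 0.339. Comp was therefore among the most variable genes, with 97.5% of genes at or below its spread, and Matn1 had 96.5%. The highest fetus exceeded the lowest 23.3-fold for Comp and 14.7-fold for Matn1, whereas Col2a1, the main collagen gene of cartilage, ran from 17367 to 29492.

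**Figure D3:**
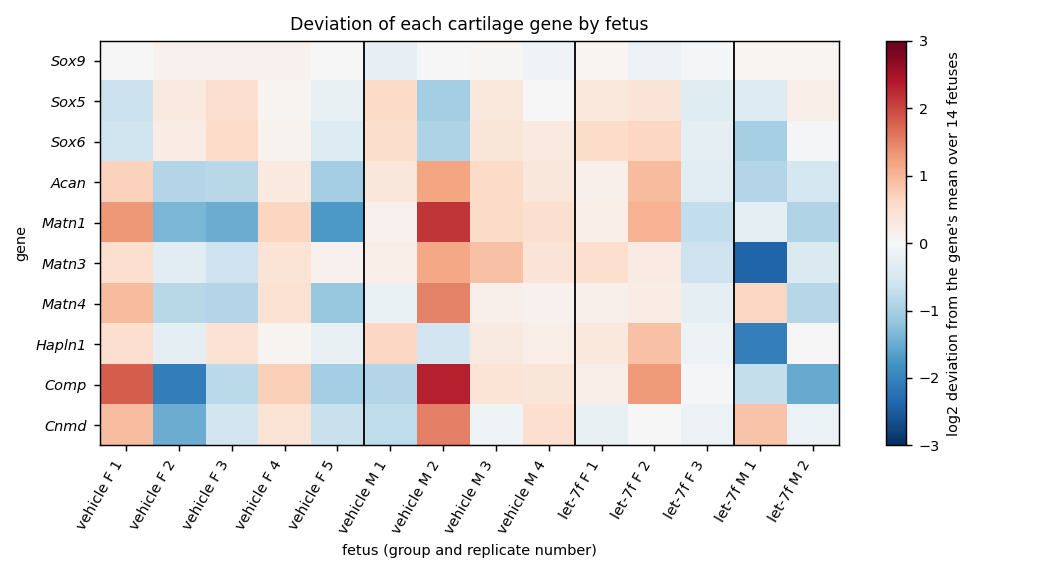
Log2 deviation of each gene (rows) from its mean over 14 fetuses, by fetus (columns; black lines separate the groups). Vehicle male 2 and vehicle female 1 are high for Acan, Matn1, Matn4, Comp and Cnmd and low for Sox5 and Sox6, and Sox9 is close to 0 throughout.

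Most of the matrix genes varied together from fetus to fetus. Acan and Matn1 had Pearson's r = 0.95 over 14 fetuses (Spearman's rho = 0.91; permutation p = 1e-05, the smallest that 100000 resamples can give; 0.000225 after adjustment over 45 pairs). The value was 0.98 without vehicle female 5 and let-7f male 1, the 2 fetuses farthest from the median of Acan, both low. Vehicle male 2, the highest for Acan and Matn1, stayed in. The value was 0.99 among the 9 vehicle fetuses alone. It was also 0.99 among the 8 libraries with a ribosomal protein share under 5%, which do not include vehicle male 2. Matn1 had r = 0.92 with Matn4 (rho 0.89), 0.90 with Comp (rho 0.93) and 0.76 with Cnmd (rho 0.76), and permutation adjusted p was 0.0003, 0.000225 and 0.00777. Matn4 and Cnmd had r = 0.87 (rho 0.84, permutation adjusted p = 0.00054). Matn3 followed Acan with r = 0.72 (rho 0.75, permutation adjusted p = 0.00455), and 0.86 without vehicle female 5 and let-7f male 1. In all, 13 of the 45 pairs had an adjusted permutation p under 0.05, of which 12 were positive. All genes of a library share that library's scaling, so a correlation between genes also holds what differs between the libraries as a whole.

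Sox5 and Sox6 formed a second block. Their r was 0.92 (rho 0.90, permutation p = 4e-05, adjusted p = 0.00045), 0.89 without vehicle male 2 and vehicle female 1, and 0.97 among vehicle fetuses. Within the 8 libraries whose ribosomal protein share was under 5% it was 0.60. In those 8 libraries Sox6 had r = 0.46 with Acan, 0.42 with Matn1, 0.50 with Matn4, 0.59 with Comp and 0.05 with Cnmd. Over 14 fetuses these were 0.09, -0.17, -0.45, -0.24 and -0.62. For Sox5 the values in the 8 libraries were below 0 with the same genes, from -0.04 with Acan to -0.52 with Cnmd. How far Sox6 stood apart from the matrix genes thus depended on the libraries included. Hapln1 went with Sox6 (r = 0.75, rho 0.73, permutation adjusted p = 0.00366; 0.51 without let-7f male 1 and vehicle male 2). The single negative pair past the threshold was Sox5 with Cnmd (r = -0.74, rho -0.66, permutation adjusted p = 0.00779; -0.47 without vehicle male 2 and vehicle female 1). Sox9 had no pair past the threshold, and its r ran from -0.46 with Acan to -0.03 with Cnmd.

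**Figure D4:**
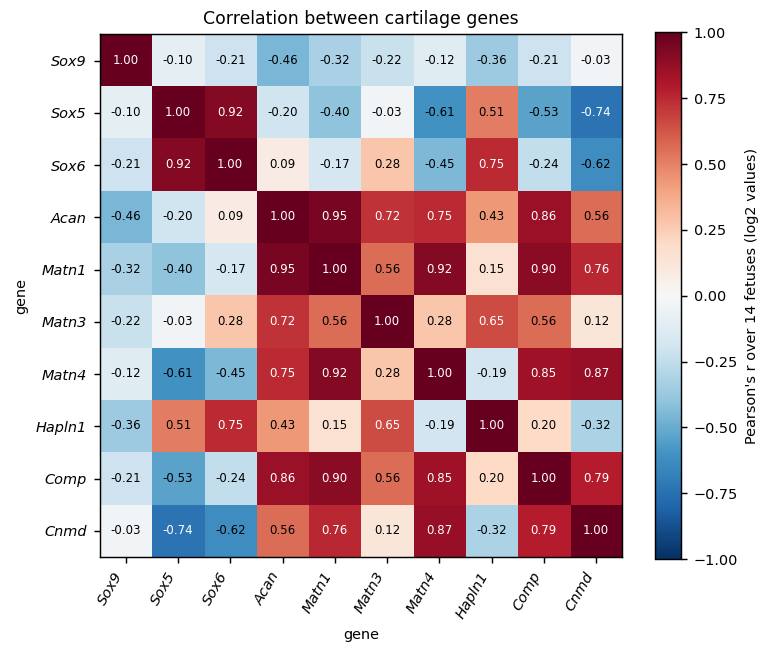
Pearson's r between the log2 values of each pair of genes over 14 fetuses. Acan, Matn1, Matn4, Comp and Cnmd form a positive block (0.56 to 0.95), Sox5 and Sox6 another (0.92), and Sox9 is below 0 with every other gene.

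The Sox5 and Sox6 block moved against the ribosomal protein share of the libraries. Over 14 fetuses, log2 Sox6 had r = -0.91 with the log2 share (rho -0.85, permutation p = 1e-05, the smallest possible; adjusted p = 0.0001 over 10 genes), and -0.90 without let-7f male 1 and vehicle male 2. For Sox5 r was -0.78 (rho -0.87, permutation adjusted p = 0.0071) and -0.91 without the same fetuses. Hapln1 had -0.84 (rho -0.56, permutation adjusted p = 0.0071), but -0.30 without them, so its relation rests on those fetuses. Cnmd moved the other way, with r = 0.69 (rho 0.62, permutation adjusted p = 0.0148) and 0.53 without them. Acan had r = -0.07 and Matn1 0.23, with permutation adjusted p = 0.831 and 0.537. The part that RNA composition plays in these values was not tested.

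**Figure D5:**
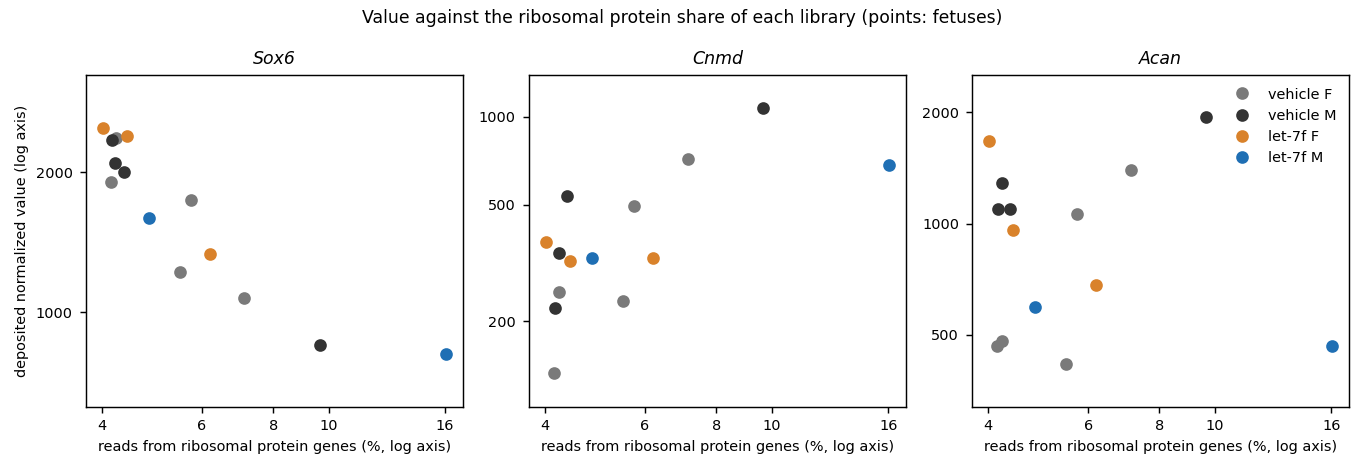
Deposited normalized value (log axis) of Sox6, Cnmd and Acan against the percentage of reads from ribosomal protein genes (log axis); points are fetuses, coloured by group (F, female; M, male). Sox6 falls and Cnmd is higher at high shares, and Acan has both high and low fetuses near 4%.

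The vehicle fetuses with the highest Matn1, Matn4 and Comp also had high sums of liver, tendon and lens markers, whereas let-7f male 1, with low Acan and Matn3, had the highest liver sum of all. In vehicle male 2 the liver markers summed to 168239, the tendon markers to 4340 and the lens markers to 3011. The sums were 121945, 3805 and 2205 in vehicle female 1. In vehicle female 5, which had the lowest Acan, Matn1 and Matn4, they were 34923, 2284 and 551. By group, the liver sum ran from 1389 to 121945 in vehicle females, 53851 to 168239 in vehicle males, 56129 to 72516 in females given let-7f, and 42693 to 182313 in males given it. Tendon sums ran from 1999 to 3805, 2981 to 4340, 2839 to 3479 and 2270 to 3924 in the same groups. The 6 tendon genes had a median log2 change of -0.74 with let-7f in males, 4 of them lower, with 3 at an unadjusted p under 0.05 (10.8% of all genes) and 0 past limma's adjusted threshold. The median was -0.51 without let-7f male 1, where 6 were lower and 0 had an unadjusted p under 0.05. Thbs4 was 354 and 439.7 in the let-7f males against 687 to 1115 in vehicle males. Tnmd, tenomodulin, named after its values were seen, was 21.2 and 93.5 against 106 to 241. Scx and Fmod went the other way, with means of 1051 and 1252 in the let-7f males against 678 and 1180 in vehicle males. Their values in the let-7f males were far apart, 488 and 1615 for Scx and 865 and 1640 for Fmod. The part of these markers in the results was not tested.

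Per length of the principal transcript (deposited value per kilobase, 9 vehicle fetuses, GENCODE M21), Matn4 had the highest mean level, 941 ± 605 (SD), followed by Sox9 with 703 ± 58.7, yet Matn4 exceeded Sox9 in only 6 of the 9 fetuses. Cnmd (309.9 ± 208), Sox6 (211 ± 67.7) and Sox5 (197 ± 63.5) came next. Sox9 exceeded Cnmd in 8 of 9 fetuses, Cnmd exceeded Sox6 in 5, and Sox6 exceeded Sox5 in 8. Matn1 (158 ± 138), Hapln1 (146 ± 38.5) and Acan (139.6 ± 68.7) did not separate beyond their spread. Comp (29.9 ± 30.1) and Matn3 (18.1 ± 6.91) were the lowest, with Acan above Comp in 9 of 9 fetuses.

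Other cartilage genes were examined as lists. Of 25 further matrix genes, 22 were tested, and Col10a1, Ucma and Clec3a were absent from the deposited table. In males 18 of the 22 were lower with let-7f (median log2 change -0.44) and in females 16 were higher (median 0.18), with 0 past limma's adjusted threshold in each sex. At an unadjusted p under 0.05 the count was 8 of 22 in males and 0 in females, against 10.8% and 0.81% of all genes. The count in males was 2 of 22 without let-7f male 1, against 2% of all genes. The smallest p-values in males were those of Chad, chondroadherin (-0.80, SE 0.218, limma adjusted p = 0.447), and Col11a1, a fibrillar cartilage collagen (-0.65, SE 0.215, limma adjusted p = 0.447), whose change was -0.34 without let-7f male 1. In females they were those of Col9a1 (0.18, SE 0.143) and Dcn, decorin (0.33, SE 0.269), both with limma adjusted p = 0.9998; without let-7f female 2 both were 0.10. In males 21 of 22 were lower without let-7f male 1 (median -0.63). Without let-7f male 2, 4 of the 22 passed limma's adjusted threshold and 13 were lower (median -0.34), against 25.2% of all genes that passed in that setting. In females the median moved between 0.05, without let-7f female 2, and 0.33, without let-7f female 3.

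Of 22 further regulators of cartilage, 10 were higher and 12 lower in males (median -0.05), and 16 were higher in females (median 0.17), with 0 past the adjusted threshold in limma and 1 in each sex with an unadjusted p under 0.05, against 10.8% of all genes in males and 0.81% in females. Sox8, a relative of SOX9, had a log2 change of 0.67 (SE 0.200) in males and Runx3 one of -0.78 (SE 0.367), with limma adjusted p = 0.447 for both. These became 0.28 and -0.22 without let-7f male 1, since Sox8 was 806 there and 465 in let-7f male 2, and Runx3 74.0 and 161. In females Runx2, which drives chondrocyte hypertrophy and bone formation, had 0.40 (SE 0.154) and Pax1, a factor of the developing vertebrae, 0.30 (SE 0.165), with limma adjusted p = 0.9998 for both. Of 20 growth plate signalling genes, 16 were lower in males (median -0.18) and 16 higher in females (median 0.08). Bmp2 had -0.78 (SE 0.279) and Fgf18 -0.66 (SE 0.300) in males, and Ccn3 had 0.30 (SE 0.289) and Fgf18 0.22 (SE 0.253) in females, none past limma's adjusted threshold. Bmp2 was 141 in let-7f male 1 and 297 in let-7f male 2, against 316 to 398 in vehicle males, and its change without let-7f male 1 was -0.25. Ccn3 in females was 0.12 without vehicle female 3, and Fgf18 in females 0.14 without vehicle female 5. Of 16 tested genes that make glycosaminoglycan chains, 11 were lower in males (median -0.14) and 10 higher in females (median 0.06), with 0 past limma's adjusted threshold. At an unadjusted p under 0.05 the signalling and glycosaminoglycan lists had 2 of 20 and 3 of 16 genes in males and 0 in females, against 10.8% and 0.81% of all genes.

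The other matrix genes mostly varied with Matn1. Over 14 fetuses 19 of the 22 had r above 0.5 with Matn1 (median 0.75), as did 9.20% of 14734 genes with a mean value of at least 50. With Sox6, 2 of the 22 had r above 0.5 (median -0.21), as did 34.2% of 14742 such genes (median 0.05). The genes most like the mean log2 deviation of the 10 members over 14 fetuses were Aqp1 (r = 0.97), Col6a2 (0.97), Susd5 (0.96), Col12a1 (0.96) and Mip (0.96), then Olfml3, Ablim3, Aspn, Col6a1 and Thbs4 (0.95 to 0.96). Susd5 was on the list of further matrix genes and Thbs4 on the tendon list, and Fmod was on both lists. The mean deviation itself was highest in vehicle male 2 (0.73), vehicle female 1 (0.55) and let-7f female 2 (0.54), and lowest in vehicle female 2 (-0.66), vehicle female 5 (-0.63) and let-7f male 1 (-0.62).

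Because Sox5 and Sox6 moved together, the 250 bases before the annotated start sites were read from RefSeq (GRCm38.p6) for the core letters that SOX proteins bind, ACAAAG and ACAATG, and on the other strand CTTTGT and CATTGT. Of the 10 members 8 had such a promoter. The letters were found in 2 of the 8, Sox5 and Sox6, and in 0 of the 6 matrix genes with a promoter (Acan, Matn1, Matn3, Matn4, Hapln1 and Cnmd), against 25.24% of 32851 promoters and 28.15% of 27025 genes. Sox6 has 6 annotated start sites, and 5 had a match. Matn4 has 2 and each other matrix gene with a promoter 1, so fewer letters were searched for the matrix genes than for Sox6. On the minus strand a gene starts at its highest coordinate, chr6:144781977 for Sox5 and chr7:116038796 for Sox6. The only Sox5 start read and the Sox6 start with most matches therefore lie inside the genes. The bases before the 5' end of Sox5 were not read. The Sox6 promoter nearest its 5' end (chr7:116038745-116038994) had 1 match, 113 bases before the start. The promoters of Sox5 (chr6:143947107-143947356, minus strand, 1 match 154 bases before the start), of the Sox6 start with most matches (chr7:115995087-115995336, minus strand, 4 matches) and of Matn1 (chr4:130944135-130944384, plus strand, no match) are shown with matches in capitals, each in its gene's direction:
Sox5: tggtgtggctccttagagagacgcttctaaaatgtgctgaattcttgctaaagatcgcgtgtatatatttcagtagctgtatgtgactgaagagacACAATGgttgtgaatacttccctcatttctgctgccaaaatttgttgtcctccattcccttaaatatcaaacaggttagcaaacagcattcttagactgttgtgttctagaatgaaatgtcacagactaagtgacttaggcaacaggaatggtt
Sox6: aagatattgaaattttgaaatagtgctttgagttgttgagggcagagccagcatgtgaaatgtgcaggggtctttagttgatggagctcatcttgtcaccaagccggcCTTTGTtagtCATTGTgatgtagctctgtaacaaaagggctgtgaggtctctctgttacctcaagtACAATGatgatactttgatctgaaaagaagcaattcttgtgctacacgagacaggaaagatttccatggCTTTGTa
Matn1: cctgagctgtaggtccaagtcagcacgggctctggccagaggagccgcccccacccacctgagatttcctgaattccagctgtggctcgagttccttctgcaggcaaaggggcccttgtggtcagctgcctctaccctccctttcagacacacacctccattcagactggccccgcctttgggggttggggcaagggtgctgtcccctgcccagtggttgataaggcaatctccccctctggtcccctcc
A match is a description of these letters and no site of binding was measured.

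The members lie on 10 different stretches of the genome (GENCODE M21, GRCm38). Sox9 is at chr11:112782224-112787760, Sox5 at chr6:143828425-144781977, Sox6 at chr7:115470872-116038796 and Acan at chr7:79053483-79115099. Matn1 is at chr4:130944385-130955475, Matn3 at chr12:8947929-8972028, Matn4 at chr2:164389393-164405160 and Hapln1 at chr13:89539796-89611652. Comp is at chr8:70373558-70382066 and Cnmd at chr14:79637690-79662170. An exon of Sox5os1 overlaps Sox5 on the opposite strand.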

How the data were processed

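Poly-A RNA of 14 whole fetuses was sequenced, and group, sex and replicate came from the sample titles. Tools in the submitters' processing notes are kallisto 0.50.1, DESeq2 1.48.2, Trimmomatic 0.39, MultiQC 1.28 and FastQC 0.12.1, and the build is GRCm39; no roles are stated. The strand setting of counting was not given in the sources used here. Each library has 1 signal value per gene, which the authors deposited as normalized counts. All values (100%) were whole multiples of 1 factor within 1e-06, so whole reads were recovered. A row without a gene name, at most 0.0334% of the reads, was left out. Libraries of a group differed beyond sampling noise in 20 of 20 pairs (lowest chi-square over its degrees of freedom 18.2).

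Genes with a mean value of at least 10 (17400) were tested with limma 3.58.1 in R 4.3.3 (trend) on log2(value + 1), which understates changes of low genes, with 4 group means and 10 residual degrees of freedom. The Benjamini-Hochberg adjustment covered all tested genes, and the threshold was 0.05. The procedure was tested on simulated data. Alternatives were edgeR 4.0.16 and DESeq2 1.42.0 on the recovered reads, other pseudocounts, filters, scaling and spread models, the replicate number as a block, and leaving out libraries. Permutation tests used 100000 resamples (numpy 2.4.6, with ranks from scipy 1.17.1). The members and lists were chosen with earlier results of these data known. Named genes were the members, the 2 smallest p-values per sex of the matrix, regulator and signalling lists, and the 10 genes most like the members' mean.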

Additional observations from a re-analysis of the deposited data

Results flagged for a closer look

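Among 20 groups of 4 or 5 fetuses (10 members, 2 vehicle groups), 2 had a fetus far from the rest by Dixon's criterion on linear values. If such values are normally distributed, chance gives about 1 in 20 groups. Both were vehicle male 2, with a Matn1 value of 932.3 (gap over range 0.88, critical value 0.829) and a Matn4 value of 5126 (gap over range 0.871). Matn1 and Matn4 had r = 0.98 among vehicle fetuses, so the 2 flags are not separate events. In the same fetus 9.67% of the reads came from ribosomal protein genes and the liver markers summed to 168239. The part of either in the Matn1 and Matn4 values was not tested.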

How the results depend on the processing

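No member passed the adjusted threshold in any comparison in any alternative, except without let-7f male 2, where Hapln1 and Matn3 passed in males and for the difference between sexes, and Matn3 over both sexes (limma adjusted p = 0.0223). Over all genes, the number called was 1 in females, and 0 with a pseudocount of 5, only the groups compared, the replicate block, both doubtful libraries (let-7f male 1 and vehicle female 2) left out, or edgeR, and 2 with no filter or DESeq2. In males it was 0, and 1 with a pseudocount of 0.5 and 58 with DESeq2. DESeq2 called 8 over both sexes, 27 for the difference and 12 for sex, against 0, 0 and 7. Leaving out 1 library gave 0 to 1 in females, 0 to 4389 in males, 0 to 868 over both sexes and 0 to 3207 for the difference, the highest 3 without let-7f male 2; the cause was not tested.

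Changes of sign concerned Sox5, Sox6, Matn3, Matn4, Hapln1 and Cnmd. With both doubtful libraries left out the log2 changes were -0.0598 for Matn3 and -0.156 for Cnmd in females, 0.224 for Sox5 and -0.469 for Cnmd in males, 0.0471 for the Sox5 difference, and 0.0389 for Sox5 and -0.0691 for Hapln1 by sex. By edgeR and DESeq2 they were -0.0932 and -0.0878 for Cnmd in females, -0.115 and -0.0865 for Cnmd in males, and 0.0269 and 0.0282 for Sox5 by sex; DESeq2 gave 0.00137 for the Cnmd difference, and rescaling to the 75th percentile -0.00465 for Cnmd in males. Leaving out 1 library, changes in females ran from -0.0577 to 0.339 for Sox5, -0.215 to 0.357 for Matn3, -0.0302 to 0.486 for Hapln1 and -0.156 to 0.448 for Cnmd. In males they ran from -0.402 to 0.224 for Sox5, -1.25 to 0.236 for Matn4 and -0.469 to 0.579 for Cnmd. Differences ran from -0.507 to 0.118 for Sox5 and -0.615 to 0.433 for Cnmd, and sex from -0.231 to 0.297 for Sox5, -0.0618 to 0.426 for Sox6 and -0.142 to 0.262 for Hapln1. At a mean of at least 50 Matn3 was not tested.

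Deviations of same-numbered fetuses from their group means had r from -0.576 to 0.346 (16 pairs, 5 over 0.1). The deviations of the 2 let-7f males mirror each other by construction. The check therefore cannot decide whether the numbers pair fetuses. With the replicate block the counts were 0 in females, 0 in males and 5 for sex, and the log2 difference by sex was -0.00435 for Sox6 and -0.0569 for Hapln1. Let-7f male 1, with the lowest depth (27709934 reads), had 4 reads for Matn3. Vehicle female 1, with 32844289 reads, had 55, and let-7f male 2, with 35452294, had 31.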
